A study of Mus musculus with 20 samples.

Results

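A list of 45 mitosis and kinetochore genes was followed through 3 cell populations of mouse bone marrow, each with and without the gene Hopx. The list was set by gene symbol and held 8 regulators of mitotic entry, 7 condensin and other chromosome proteins, 4 spindle checkpoint proteins and 10 kinetochore and centromere proteins. It further held the 4 subunits of the chromosomal passenger complex, 9 spindle motors and cytokinesis proteins and 3 regulators of anaphase. Each symbol matched exactly 1 of the 45706 gene identifiers measured. After a filter on low counts, 17160 genes were tested, and 45 of the 45 listed genes were among them. RNA was sequenced from 20 libraries of sorted bone-marrow cells, in 6 groups, from C57BL/6 mice aged 8 weeks. The groups were Hopx-knockout (KO) MPP2 with 3 libraries and Hopx wild-type (WT) MPP2 with 3, KO MPP3 with 3 and WT MPP3 with 4, and KO LT-HSC with 3 and WT LT-HSC with 4. LT-HSC are long-term hematopoietic stem cells, and MPP2 and MPP3 are types of multipotent progenitor that descend from them. The sources used here do not state how the Hopx allele was deleted, which antigens were sorted on or which animal gave which library. Each p-value therefore measures the spread between libraries, which may be technical, and a mouse may have given libraries to more than 1 population.

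At the start of mitosis, cyclins A and B switch on the kinase Cdk1, and condensin, a ring built on Smc2 and Smc4, compacts the chromosomes. The kinetochore forms on centromeric nucleosomes that carry Cenpa and ties each chromosome to spindle microtubules, while checkpoint kinases hold back Cdc20 until the chromosomes are attached. The anaphase-promoting complex then marks securin and cyclin B for destruction, the chromatids part and the cell divides. Transcripts of many of these genes are known to peak in G2 phase and mitosis, and long-term stem cells are known to be mostly quiescent. In bulk samples, fewer cells of a type and less RNA per cell cannot be told apart.

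The library labels were checked first. Hopx was read in 0 of 9 KO libraries and in 10 of 11 WT libraries, where WT LT-HSC replicate 4 was the library at 0. Reads in genes numbered 11163345 to 15189909 per library. The summed normalized count of 10 stem cell markers was 8163 to 20708 in MPP2 and 8531 to 17932 in MPP3, below the 23624 to 33075 in LT-HSC. Libraries stood apart within groups. WT MPP2 replicate 3 had a summed count of 318793 over 7 B and plasma cell markers, against at most 1100.3 in the other MPP2 libraries. Its early lymphoid markers summed to 12247, against at most 503.5 in those libraries and 10071 to 31275 in MPP3. Its monocyte and macrophage markers summed to 3024, against at most 1230 there and 2209 to 5675 in MPP3. It also had the lowest megakaryocyte and platelet sum of MPP2, 3059.7, which was still above every MPP3 library. The 6 mature neutrophil markers summed to more than 5000 in 5 libraries, namely WT MPP2 replicate 2, WT MPP3 replicates 2 and 3, KO LT-HSC replicate 1 and WT LT-HSC replicate 2. Their sums ran from 7923 to 24824 in those libraries and from 55.9 to 697 in the other 15, and Ltf was at 0 in every MPP2 library. The 8 erythroid markers summed to 7960.3 to 79602 in MPP2, 565 to 27232 in MPP3 and 2444 to 25887 in LT-HSC. The 6 megakaryocyte and platelet markers summed to 3059.7 to 74037 in MPP2, 449 to 2052 in MPP3 and 3735 to 36937 in LT-HSC, and the 6 neutrophil precursor markers to 946 to 68212 in MPP2, 18154 to 141998 in MPP3 and 1022 to 3088 in LT-HSC. What part these differences have in the results below was not tested. The counts of called genes are also given without the 5 libraries with mature neutrophil markers. By Xist and Y-linked transcripts, 2 of the 3 libraries in each KO group were female, against 1 of the 3 or 4 in each WT group.

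The mitosis genes were highest in MPP2. Summed over the 45 genes, the normalized count was 98463, 126716 and 115391 in the KO MPP2 libraries and 130129, 129479 and 111052 in the WT MPP2 libraries. The sum was 59882, 66762 and 69176 in KO MPP3 and 98152, 43165, 71319.6 and 93482 in WT MPP3. In the stem cells it was 62064, 41939 and 57028 in KO LT-HSC and 90583, 62721, 40715 and 48040.1 in WT LT-HSC. Every MPP2 library thus lay above every MPP3 and LT-HSC library, whereas the MPP3 and LT-HSC libraries overlapped. The gap to MPP3 was very narrow, with KO MPP2 replicate 1 at 98463 and WT MPP3 replicate 1 at 98152. As a share of reads in genes, the lowest MPP2 library, WT replicate 3, had 0.721%, beside 0.720% in WT MPP3 replicate 1. As a share of all reads in genes, the 45 genes took 0.865 ± 0.118% in MPP2 (SD, n = 6), 0.537 ± 0.145% in MPP3 (n = 7) and 0.440 ± 0.124% in LT-HSC (n = 7). The population means stood in the order MPP2, MPP3, LT-HSC in 41 of the 45 genes. In Cenpf and Spc25 LT-HSC stood between MPP2 and MPP3, in Kif23 MPP3 was highest, and in Pttg1 LT-HSC was highest. The libraries within a group were uneven. WT LT-HSC replicate 1 was the highest of its group in 41 of 45 genes, and WT MPP3 replicate 2 was the lowest of its group in 35 of 45.

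**Figure D1:**
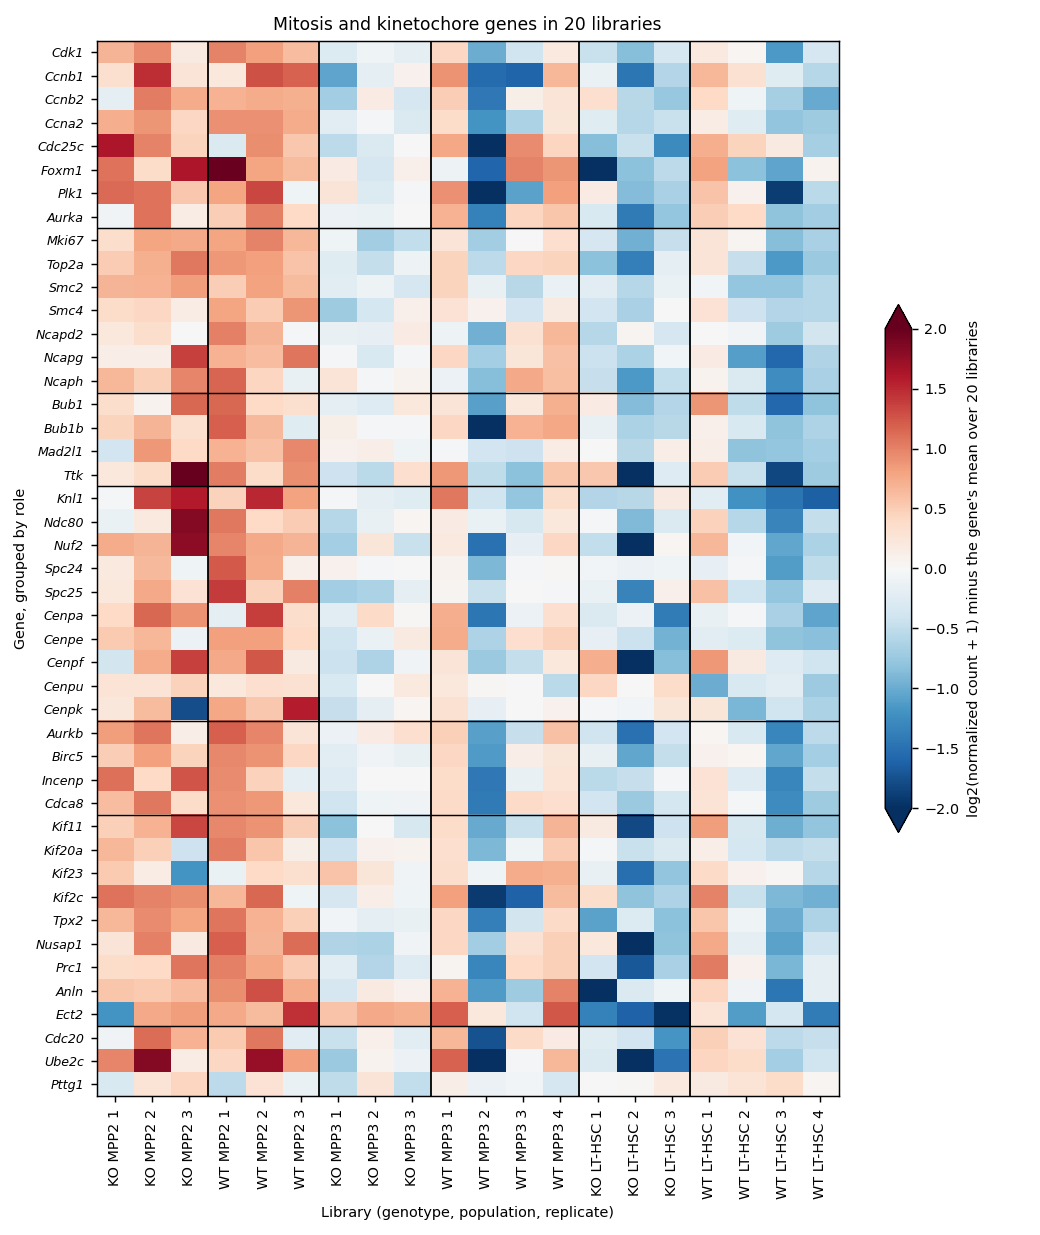
Each cell is the log2(normalized count + 1) of 1 gene in 1 library minus that gene's mean over the 20 libraries, with the 45 genes down the page by role and the libraries across in 6 groups. The 6 MPP2 columns on the left are mostly red, the WT MPP3 replicate 2 column is mostly blue, and the bottom line, Pttg1, is pale throughout.

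MPP2 was then compared with LT-HSC, taking the mean of the KO and WT differences on the log2(normalized count + 1) scale. Of the 45 genes, 27 rose in MPP2 and 0 fell by limma at a Benjamini-Hochberg adjusted p under 0.05. Of all genes tested, 384 of 17160 genes, 2.24%, passed as higher and 872 of 17160 genes, 5.08%, as lower. The risers included Top2a, Mki67, Ccna2, Cdk1, Knl1, Ect2, the whole chromosomal passenger complex and 6 of the 7 chromosome proteins. The median log2 difference of the 45 genes was 1.13, beside -0.11 over all genes tested. In 44 of 45 genes the difference was above 0, and the exception was Pttg1. The lowest of the 6 MPP2 libraries lay above the highest of the 7 LT-HSC libraries in 9 of the 45 genes, against 142 of 17160 genes, 0.828%, overall. Those 9 were Ccna2, Mki67, Top2a, Smc2, Nuf2, Cenpe, Aurkb, Birc5 and Anln. The number of risers was 17 without the 5 libraries with mature neutrophil markers, with a median of 1.22. Foxm1, Incenp, Kif11, Mad2l1, Ncapg, Ndc80, Nuf2, Prc1, Spc24 and Spc25 were the 10 that did not pass then, at a log2 difference of at least 0.81. It was 16 without WT LT-HSC replicate 3, and 17 without WT MPP2 replicate 1 or without WT MPP2 replicate 2. The share of all genes called with libraries left out is not given here. These lower counts therefore cannot be told apart from a move in calls over all genes.

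Against MPP3, the other progenitor, 8 of the 45 genes rose in MPP2 and 0 fell (limma), where 384 of 17160 genes, 2.24%, passed as higher and 796 of 17160 genes, 4.64%, as lower. The 8 were Cdk1, Ccna2, Mki67, Top2a, Smc2, Smc4, Spc25 and Tpx2. The median log2 difference was 0.80, beside -0.09 over all genes, and 8 genes had no MPP2 library as low as any MPP3 library, against 164 of 17160 genes, 0.956%. Those were Ccna2, Mki67, Top2a, Smc2, Nuf2, Spc25, Cenpu and Tpx2. Without the 5 libraries with mature neutrophil markers, 0 of the 45 genes passed and the median was 0.51. The 8 then had log2 differences of 0.61 to 1.07 and limma adjusted p of 0.0516 to 0.26. The share of all genes that passed then is not given here, so the 0 cannot be read as particular to the mitosis genes. The count was 3 without KO MPP3 replicate 1 or WT MPP2 replicate 1, and 5 without KO MPP2 replicate 2, KO MPP3 replicate 2, KO MPP3 replicate 3 or WT MPP2 replicate 2. MPP3 against LT-HSC gave 1 riser, Ect2, and 0 that fell (limma), where 553 of 17160 genes, 3.22%, passed as higher and 717 of 17160 genes, 4.18%, as lower. The median log2 difference was 0.28, beside a median near 0 over all genes, and 0 of the 45 genes had every MPP3 library above every LT-HSC library, against 354 of 17160 genes, 2.06%. That median was 0.50 without WT MPP2 replicate 3 and WT MPP3 replicate 2, and 0.69 without the libraries with mature neutrophil markers. The count was 5 without WT MPP3 replicate 2, and 2 without KO LT-HSC replicate 3, KO MPP2 replicate 3 or WT LT-HSC replicate 1. For every count in this paragraph with libraries left out, the share of all genes is likewise not given.

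**Figure D2:**
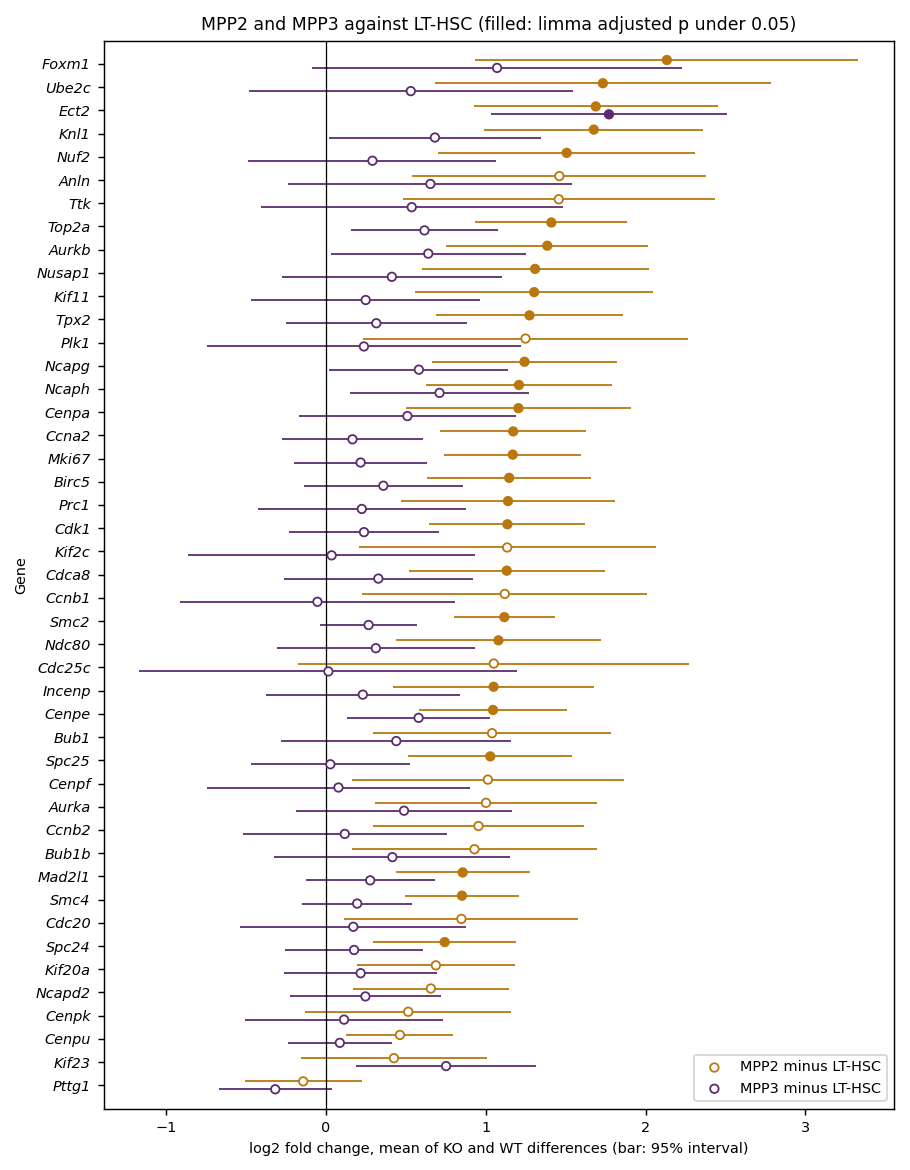
Log2 fold changes of the 45 genes for MPP2 minus LT-HSC (orange) and MPP3 minus LT-HSC (purple), each the mean of the KO and WT differences with its 95% interval as a bar, ordered by the MPP2 difference, with filled points past the limma threshold. The 27 filled orange points lie right of 0, Ect2 is the single filled purple point at 1.77, and Pttg1 is at the bottom at -0.14.

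Taken genotype by genotype, fewer genes passed, with 3 or 4 libraries a group. In KO, MPP2 against LT-HSC gave 2 risers, Top2a and Smc2, where 20 of 17160 genes, 0.117%, passed as higher. All KO MPP2 libraries lay above all KO LT-HSC libraries in 30 of the 45 genes, against 1166 of 17160 genes, 6.79%. In WT, 4 genes rose, Smc2, Smc4, Mad2l1 and Knl1, where 48 of 17160 genes, 0.28%, passed as higher, and 19 genes did not overlap, against 800 of 17160 genes, 4.66%. The median log2 differences were 1.22 in KO and 1.09 in WT. Single libraries moved these counts. By DESeq2 the count was 14 in KO and 16 in WT, and with the runs of title numbers as a covariate 11 in KO and 17 in WT. By edgeR it was 0 in KO and 1 in WT, and with only the compared groups in the fit 0 in each. The shares of all genes above are those of the main limma fit and are not the background of these other counts. In KO the limma count was 0 without KO MPP2 replicate 3, KO LT-HSC replicate 1 or KO LT-HSC replicate 2, 1 without KO LT-HSC replicate 3 and 8 without WT MPP3 replicate 2, which enters through the shared spread. In WT it was 0 without WT MPP2 replicate 2, 1 when any of WT LT-HSC replicates 2, 3 and 4 or WT MPP2 replicate 1 was left out. It was 8 without KO MPP2 replicate 3, 9 without WT LT-HSC replicate 1 and 11 without WT MPP3 replicate 2. Against MPP3, KO MPP2 gave 1 riser, Smc2, with 115 of 17160 genes, 0.67%, passing as higher, and 27 genes that did not overlap, against 1277 of 17160 genes, 7.44%. Smc2 did not pass there without KO MPP2 replicate 1 or 3 or without any 1 of the 3 KO MPP3 libraries, and 2 genes passed without WT MPP3 replicate 2. WT MPP2 against WT MPP3 gave 0 by limma, with 13 genes at an unadjusted p under 0.05, where 44 of 17160 genes, 0.256%, passed as higher. DESeq2 gave 1 and edgeR 0 there, and limma gave 1 without WT MPP2 replicate 3 or WT MPP3 replicate 1. Groups did not overlap in 18 genes, against 686 of 17160 genes, 4.0%. For MPP3 against LT-HSC, KO gave 1 riser, Ect2, with 156 of 17160 genes, 0.909%, passing as higher, and 10 genes that did not overlap, against 1726 of 17160 genes, 10.1%. The WT comparison gave 0 by limma, where 257 of 17160 genes, 1.5%, passed as higher, with 7 genes at an unadjusted p under 0.05, and 0 genes without overlap, against 724 of 17160 genes, 4.22%. DESeq2 gave 1 and edgeR 0, and limma gave 2 without WT MPP3 replicate 2. For both WT comparisons with MPP3, the share of all genes at an unadjusted p under 0.05 is not given here. In KO, Ect2 did not pass without any 1 of the 6 libraries compared. The KO and WT values come from separate libraries, but the MPP2 and MPP3 comparisons share their LT-HSC libraries.

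The library titles carry numbers that fall into 4 runs, 52 to 54, 81 to 88, 101 to 106 and 115 to 120, whose meaning the labels do not give. Within a run and a genotype, MPP2 could be set against LT-HSC 5 times, and 36 to 45 of the 45 genes were higher in MPP2 each time, beside 44.3% to 45.3% of all genes. In 33 genes MPP2 was higher in each of the 5, beside 8.18% of all genes. MPP2 could be set against MPP3 5 times as well, again with 33 genes higher in MPP2 in each, beside 8.02% of all genes. MPP3 was higher than LT-HSC in each of its 5 settings in 10 of the 45 genes, beside 1775 of 17160 genes, 10.3%, which is a smaller share. The difference of these shares was not tested. Setting by setting, 32 and 36 of the 45 genes were higher in KO and 21, 44 and 42 in WT, beside 44.7% to 49.9% of all genes. The 21 came from the WT libraries numbered 52 to 54, which hold WT MPP3 replicate 2, beside 49.3% of all genes. The median log2 difference was -0.09 there and 0.26 to 0.72 in the other settings.

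Many of the 45 genes share letters in their promoters. Genes of late cell cycle are known for a cell cycle genes homology region (CHR), letters TTTGAA, bound by the MuvB core of the DREAM and B-Myb complexes, and for CCAAT boxes bound by NF-Y. RefSeq gave a window of 250 bases before to 50 bases after the transcript start (GRCm38.p6) for 36 of the 45 genes. Windows for Aurkb, Ccna2, Cdc25c, Foxm1, Incenp, Kif20a, Smc4, Spc24 and Tpx2 were not used here. Searched on both strands, TTTGAA stood in the windows of 25 of the 36 genes, or 69.4%, against 20.2% of 27025 genes with a window of the same length. Within 50 bases of the start it stood in 22 of 36, or 61.1%, against 5.72% of all. CCAAT stood in the windows of 26 of the 36 genes, or 72.2%, against 41.1%, and both motifs in those of 21 of 36, or 58.3%, against 7.97%. Of the 20 genes with a window that rose in MPP2 over LT-HSC, 14 held TTTGAA, or 70.0%. Of the 16 that did not pass, 11 held it, or 68.8%. A gene with more than 1 window was counted once. The 5 windows printed here were chosen for what their genes do in these data: Cdk1, Top2a and Ube2c were high in MPP2, Ect2 was high in MPP2 and MPP3, and Pttg1 was level. They are printed 5′ to 3′ along the gene's own strand, and capitals mark TTTGAA or CCAAT or their reverse complements TTCAAA or ATTGG. A match describes these letters and is no evidence of binding.
Cdk1, chr10:69352863-69353162, minus strand: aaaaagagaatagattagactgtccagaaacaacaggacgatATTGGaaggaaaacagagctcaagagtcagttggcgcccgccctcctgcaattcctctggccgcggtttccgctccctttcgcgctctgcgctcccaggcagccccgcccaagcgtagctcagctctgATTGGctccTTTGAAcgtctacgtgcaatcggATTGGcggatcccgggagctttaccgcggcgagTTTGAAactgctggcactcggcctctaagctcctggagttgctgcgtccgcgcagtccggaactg
Top2a, chr11:99024140-99024439, minus strand: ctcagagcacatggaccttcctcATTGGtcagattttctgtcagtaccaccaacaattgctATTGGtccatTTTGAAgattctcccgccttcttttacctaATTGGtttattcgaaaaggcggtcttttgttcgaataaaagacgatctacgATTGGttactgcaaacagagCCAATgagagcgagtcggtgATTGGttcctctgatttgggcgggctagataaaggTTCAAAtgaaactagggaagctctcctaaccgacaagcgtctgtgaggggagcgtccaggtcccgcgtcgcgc
Ube2c, chr2:164769679-164769978, plus strand: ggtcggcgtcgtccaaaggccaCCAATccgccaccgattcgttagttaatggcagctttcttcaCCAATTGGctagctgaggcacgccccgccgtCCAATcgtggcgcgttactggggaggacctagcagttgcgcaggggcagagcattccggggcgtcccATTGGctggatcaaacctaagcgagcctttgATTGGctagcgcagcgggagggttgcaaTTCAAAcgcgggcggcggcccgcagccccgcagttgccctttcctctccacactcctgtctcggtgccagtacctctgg
Ect2, chr3:27153829-27154128, minus strand: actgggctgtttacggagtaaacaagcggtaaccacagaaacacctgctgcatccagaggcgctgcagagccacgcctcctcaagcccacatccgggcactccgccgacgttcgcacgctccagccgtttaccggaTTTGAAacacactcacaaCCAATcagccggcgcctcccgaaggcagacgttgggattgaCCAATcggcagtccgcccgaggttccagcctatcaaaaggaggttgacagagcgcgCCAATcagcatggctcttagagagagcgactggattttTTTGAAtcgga
Pttg1, chr11:43425932-43426231, minus strand: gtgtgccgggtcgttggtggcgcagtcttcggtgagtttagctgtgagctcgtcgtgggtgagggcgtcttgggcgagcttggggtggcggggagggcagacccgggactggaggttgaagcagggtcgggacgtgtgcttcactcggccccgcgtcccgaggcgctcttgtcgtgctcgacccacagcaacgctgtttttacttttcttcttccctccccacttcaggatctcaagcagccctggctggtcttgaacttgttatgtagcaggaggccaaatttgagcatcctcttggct
The Cdk1 and Top2a windows hold 2 TTTGAA matches each, with 3 and 6 CCAAT matches. Ube2c holds 1 and 6, and 2 of its CCAAT matches overlap on opposite strands. Ect2 holds 2 and 3, and the Pttg1 window holds neither. The transcript start of that Pttg1 window lies 270 bases inside the gene from the outer start in the annotation, so the bases before the outer start are not in it. For Cdk1, Top2a, Ube2c and Ect2 the 2 starts are 26, 0, 31 and 0 bases apart. Pttg1 was not alone in this, as 4 genes had a window start more than 200 bases from the outer start. The start lies 2394 bases inside for Cdca8 and 3867 for Kif2c, and Cenpk has windows 355 and 777 bases inside. Cdca8 and Kif2c are among the genes counted above as holding TTTGAA, and Cdca8 among those with it within 50 bases.

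**Figure D3:**
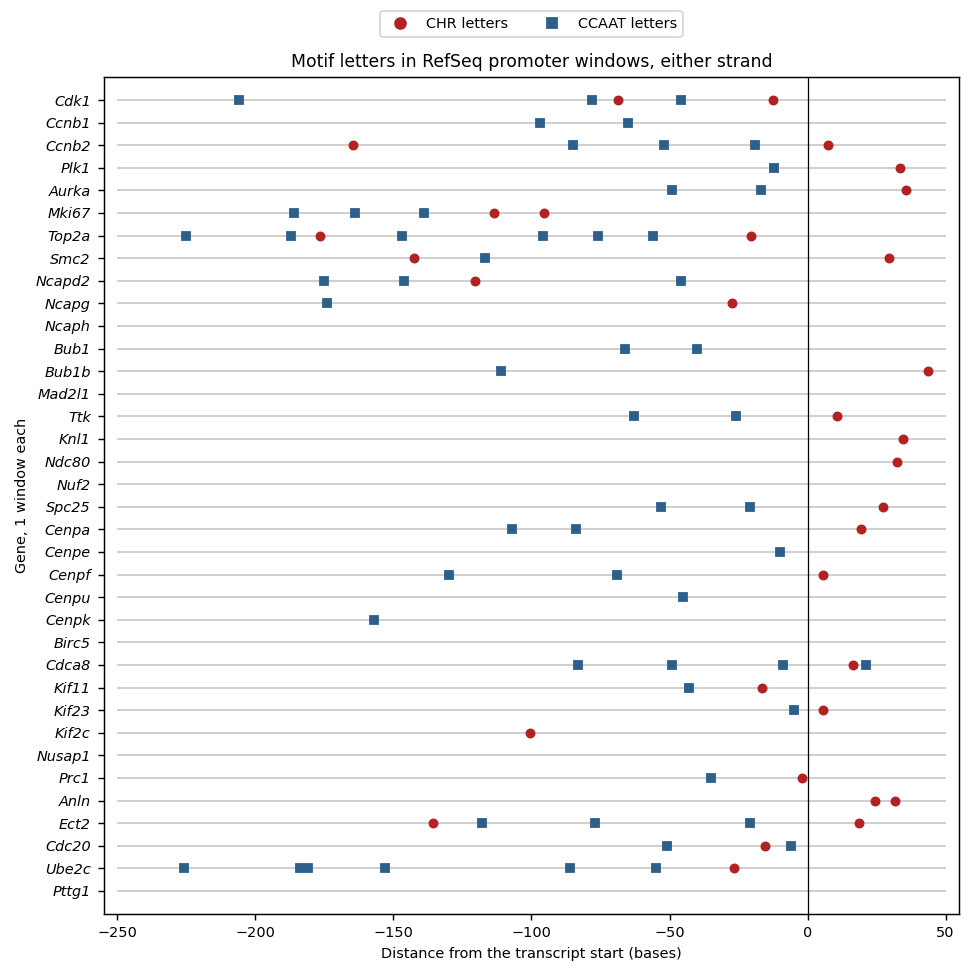
Positions of TTTGAA (CHR, red circles) and CCAAT (blue squares) on either strand in 1 RefSeq promoter window for each of 36 genes, as distance in bases from the transcript start (vertical line). TTTGAA lies within 50 bases of the start in 22 of the 36 genes, and the line for Pttg1 is empty. The transcript starts used for Pttg1, Cdca8 and Kif2c lie 270, 2394 and 3867 bases inside the annotated gene.

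Among the regulators of mitotic entry, Cdk1, Ccna2 and Foxm1 rose in MPP2 over LT-HSC, and all 8 had a positive difference. Cdk1, the kinase that starts mitosis, had 4788, 5739 and 3362 normalized counts in KO MPP2 and 5915, 5291 and 4571 in WT MPP2. It had 2464, 2797 and 2620.3 in KO MPP3 and 3965, 1501, 2255 and 3399 in WT MPP3. LT-HSC had 2187, 1643 and 2359.8 in KO and 3404, 3067, 1345 and 2361 in WT. The MPP2 values overlapped the others through KO MPP2 replicate 3. It was just under WT LT-HSC replicate 1 and WT MPP3 replicate 4, and further under WT MPP3 replicate 1. The log2 fold change was 1.14 against LT-HSC (SE 0.23, limma adjusted p = 0.00784) and 0.90 against MPP3 (limma adjusted p = 0.0263). Ccna2, the cyclin of S phase and early mitosis, did not overlap at all between MPP2 and the other populations, at 5583 ± 698 in MPP2 (SD, n = 6), 2897 ± 963 in MPP3 and 2517 ± 593 in LT-HSC (n = 7 each). Its log2 fold changes were 1.17 and 1.01 (limma adjusted p = 0.00403 against LT-HSC and 0.00962 against MPP3).

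Ccnb1, the B-type cyclin that partners Cdk1, was more uneven. It had 1276, 2860.4 and 1222 in KO MPP2 and 1191, 2482 and 2317 in WT MPP2. The counts were 494, 908 and 1092 in KO MPP3 and 1909, 353, 337 and 1630.3 in WT MPP3. In LT-HSC they were 941, 377 and 687 in KO and 1637, 1274, 872 and 691 in WT. KO MPP2 replicate 2 was the highest library, WT MPP3 replicates 2 and 3 were the lowest, and the populations overlapped. The log2 fold change of 1.12 over LT-HSC did not pass (95% interval 0.23 to 2.01, limma adjusted p = 0.12).

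Foxm1, a transcription factor that switches on G2 and mitosis genes, had 524, 319 and 756 in KO MPP2 and 969, 425 and 380.4 in WT MPP2. MPP3 libraries had 277, 195 and 264 in KO and 230.0, 81.7, 492 and 454 in WT. The stem cells had 12, 139.7 and 171 in KO and 429.5, 139.6, 118 and 258 in WT. KO LT-HSC replicate 1, at 11 reads, was far below the rest, and WT LT-HSC replicate 1 overlapped MPP2. The MPP2 over LT-HSC log2 fold change was 2.13 (95% interval 0.94 to 3.33, limma adjusted p = 0.0297). Without KO LT-HSC replicate 1 it was 1.54 and did not pass (limma adjusted p = 0.0607).

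Plk1, the Polo kinase of mitotic entry and spindle assembly, had 1831, 1767 and 1217 in KO MPP2 and 1449, 2114 and 787 in WT MPP2. It had 1003, 687 and 826 in KO MPP3 and 1569.5, 169.6, 396 and 1476 in WT MPP3. The LT-HSC values were 934, 455 and 532 in KO and 1245, 886, 223 and 577 in WT. Each population overlapped the others, and WT MPP3 replicate 2 was lowest. Its log2 fold change of 1.25 did not pass (limma adjusted p = 0.128), and neither did 0.95 for Ccnb2, the other B-type cyclin, 1.0 for Aurka, the Aurora kinase of spindle poles, or 1.05 for Cdc25c, a phosphatase that activates Cdk1.

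**Figure D4:**
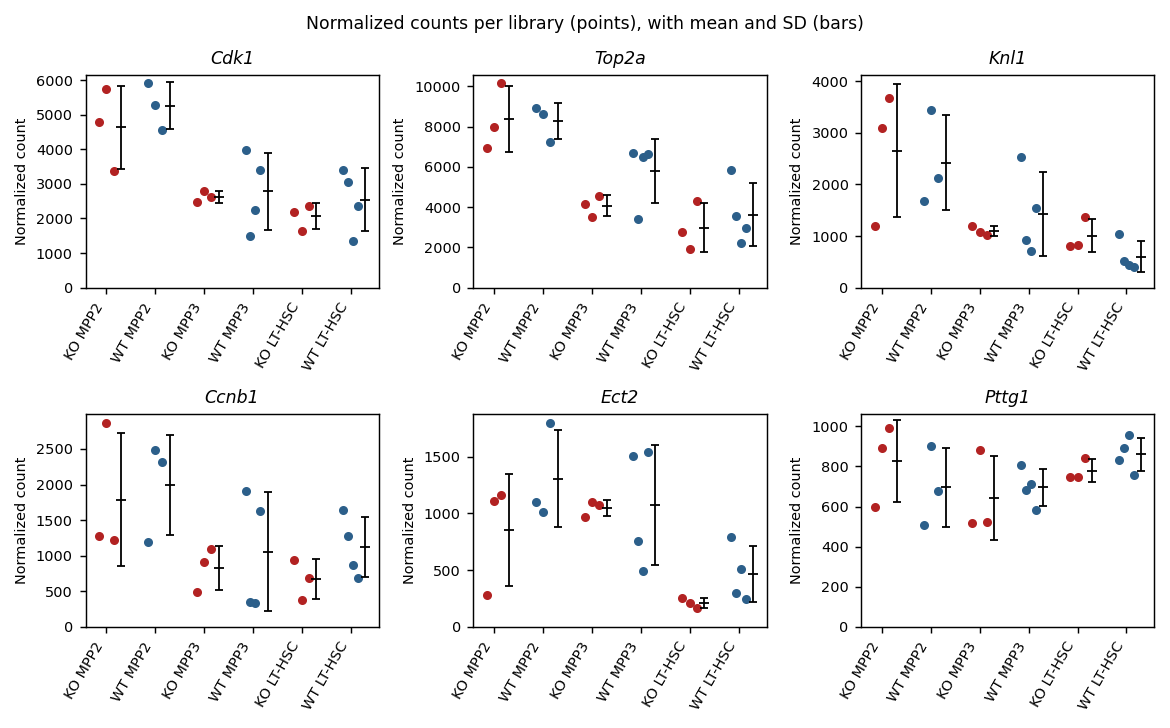
Normalized counts of Cdk1, Top2a, Knl1, Ccnb1, Ect2 and Pttg1 in each library (points, red for KO and blue for WT), with the mean and SD of each of the 6 groups beside them. Ect2 is at 166 to 790.4 in LT-HSC and mostly above that in MPP2 and MPP3, while Pttg1 stays between 511 and 993 in all groups.

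Of the 7 chromosome genes, Top2a, Mki67 and Smc2 separated MPP2 from every other library. Top2a, the topoisomerase that untangles sister chromatids, had 6952, 7995 and 10162 in KO MPP2 and 8905, 8618 and 7245 in WT MPP2. It had 4147, 3514 and 4549 in KO MPP3 and 6661, 3399.9, 6508 and 6632 in WT MPP3. The counts were 2773, 1899.9 and 4284 in KO LT-HSC and 5834, 3549, 2202 and 2938 in WT LT-HSC. The lowest MPP2 library was above the highest of the other populations, and WT MPP3 replicate 2 stood apart from the other 3 of its group. The call against MPP3 failed under 16 of 33 alternatives. The log2 fold change was 1.41 over LT-HSC (SE 0.23, limma adjusted p = 0.00157), 0.79 over MPP3 (limma adjusted p = 0.0414) and, within KO, 1.55 over LT-HSC (limma adjusted p = 0.0303).

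Mki67, the surface coat of mitotic chromosomes and the standard marker of cycling cells, had 2818, 3790.2 and 3724 in KO MPP2 and 3813, 4384 and 3489.7 in WT MPP2. It had 2063, 1364 and 1560.0 in KO MPP3 and 2621, 1364, 2186 and 2789 in WT MPP3. LT-HSC had 1743, 1133 and 1599 in KO and 2619, 2276, 1213 and 1397 in WT. MPP2 again lay above all other libraries, and the MPP3 and LT-HSC values overlapped. The log2 fold change was 1.17 over LT-HSC (limma adjusted p = 0.0027) and 0.95 over MPP3 (limma adjusted p = 0.00939), while MPP3 over LT-HSC came to 0.22 (95% interval -0.20 to 0.63).

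Smc2 and Smc4, the paired ATPase arms of condensin, varied little within groups, with within-group SDs of 0.27 for Smc2 and 0.32 for Smc4 on the log2 scale, beside a median of 0.586 over the 45 genes. Averaged over the genotypes, Smc2 had the smallest adjusted p of the 45 genes in both MPP2 comparisons, with 5421, 5433 and 6012 in KO MPP2 and 4741, 5914 and 5240.4 in WT MPP2. It had 2876, 3148 and 2669 in KO MPP3 and 4598, 3037, 2303 and 3092 in WT MPP3. The stem cells had 2879.6, 2276 and 3074 in KO and 3253, 1971, 1971 and 2271 in WT. MPP2 did not overlap either population. Smc2 rose by 1.12 over LT-HSC (limma adjusted p = 0.000445) and 0.85 over MPP3 (limma adjusted p = 0.00243) on the log2 scale. It passed within each genotype against LT-HSC, with 1.04 in KO and 1.19 in WT (limma adjusted p = 0.0268 in KO and 0.0111 in WT).

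Smc4 had 7769.6, 8032 and 6659 in KO MPP2 and 10399, 8567 and 11072 in WT MPP2. MPP3 libraries had 3666, 4735 and 6461 in KO and 7382, 6402, 4624 and 6804 in WT. LT-HSC libraries had 4598, 3841 and 6000.3 in KO and 7385, 4511, 4001 and 4047 in WT. WT LT-HSC replicate 1 and WT MPP3 replicates 1 and 4 lay above the lowest MPP2 library, KO MPP2 replicate 3. Its log2 fold change was 0.85 over LT-HSC and 0.66 over MPP3 (limma adjusted p = 0.00648 over LT-HSC and 0.026 over MPP3). Ncapg and Ncaph, further subunits of condensin I, rose by 1.24 and 1.21 over LT-HSC, and Ncapd2, the remaining one, did not pass at 0.66 (limma adjusted p = 0.0934).

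Of the spindle checkpoint genes, Mad2l1 rose and Bub1, Bub1b and Ttk did not pass. Mad2l1, which inhibits Cdc20 at unattached kinetochores, was 3228 ± 911 in MPP2 (SD, n = 6), 2073 ± 319.9 in MPP3 and 1743 ± 525 in LT-HSC (n = 7 each). It rose by 0.86 on the log2 scale over LT-HSC (limma adjusted p = 0.0149) and by 1.28 within WT (limma adjusted p = 0.032), where WT MPP2 had 3487, 3237 and 4197 against 2362, 1233, 1261 and 1351 in WT LT-HSC. Bub1, a checkpoint kinase of the kinetochore, had 1504, 1234 and 2619 in KO MPP2 and 2628, 1555 and 1479 in WT MPP2. It had 1034, 992 and 1373 in KO MPP3 and 1409, 555, 1370.3 and 1926 in WT MPP3. Its LT-HSC counts were 1321, 645 and 787 in KO and 2168, 827, 396 and 677 in WT. WT LT-HSC replicate 1 was above 4 of the 6 MPP2 libraries, and the log2 fold change of 1.04 did not pass (limma adjusted p = 0.0822). Ttk, the kinase that starts checkpoint signalling, differed by 1.46 (95% interval 0.48 to 2.43) and Bub1b by 0.93 (95% interval 0.17 to 1.69).

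In the kinetochore, 7 of the 10 genes rose in MPP2 over LT-HSC, namely Knl1, Ndc80, Nuf2, Spc24, Spc25, Cenpa and Cenpe. Knl1, the scaffold that recruits Bub1, had 1200.2, 3092 and 3667 in KO MPP2 and 1681, 3446 and 2122 in WT MPP2. It had 1202, 1071 and 1024 in KO MPP3 and 2534, 925, 711 and 1545 in WT MPP3. The counts were 810.3, 824 and 1374 in KO LT-HSC and 1045, 524, 439 and 392 in WT LT-HSC. The WT groups did not overlap, whereas KO MPP2 replicate 1 lay below KO LT-HSC replicate 3. The log2 fold change was 1.68 (SE 0.33, limma adjusted p = 0.00582), and within WT 2.06 (limma adjusted p = 0.0348). The MPP3 over LT-HSC difference in WT, 1.19, did not pass (limma adjusted p = 0.14).

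The 4 subunits of the Ndc80 complex, the microtubule-binding rod, rose together over LT-HSC by 1.08 for Ndc80, 1.51 for Nuf2, 0.74 for Spc24 and 1.03 for Spc25 (limma adjusted p from 0.017 to 0.0405). Spc25 also rose over MPP3, by 1.0 (limma adjusted p = 0.0194), with 2236, 3274 and 2362 in KO MPP2 and 5103, 2664 and 3888 in WT MPP2 against 1184, 1245 and 1678 in KO MPP3 and 1996, 1419.8, 1925 and 1895 in WT MPP3. Those groups did not overlap. MPP3 and LT-HSC were near level in Spc25, at a log2 difference of 0.03 (95% interval -0.47 to 0.52).

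Cenpa, the histone H3 variant of centromeres, had 2755, 4609.9 and 3858 in KO MPP2 and 1825, 5429 and 2649.8 in WT MPP2. Its MPP3 counts were 1792, 2701 and 2122 in KO and 3454, 766, 1914 and 2631 in WT. The LT-HSC counts were 1692, 1914 and 784 in KO and 1874, 2019.7, 1332 and 1002 in WT. WT MPP2 replicate 1 was low for its group and overlapped LT-HSC. Cenpa rose by 1.20 on the log2 scale (limma adjusted p = 0.0358). Cenpe, a kinesin of the outer kinetochore, rose by 1.05 without overlap (limma adjusted p = 0.00935). Averaged over the genotypes, the inner kinetochore genes Cenpu and Cenpk differed least of the 10, by 0.46 and 0.52. Neither passed (limma adjusted p = 0.0854 for Cenpu and 0.331 for Cenpk), nor did Cenpf at 1.01. Mean Cenpu counts in MPP2 and LT-HSC were 1015 and 965 in KO and 978 and 556 in WT. For Cenpk they were 1320 and 1366 in KO, with KO MPP2 replicate 3 at 383, and 2687 and 1024 in WT. The difference of the KO effect between populations was not called in either gene (limma).

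The chromosomal passenger complex, in which the kinase Aurkb is guided by Incenp, Birc5 and Cdca8 (survivin and borealin), rose as a whole. Birc5 had 3417, 4296 and 3283 in KO MPP2 and 4700.5, 4489 and 3223 in WT MPP2. It had 2063, 2309 and 2179 in KO MPP3 and 3242, 1106, 2659.5 and 2870.2 in WT MPP3. The stem cells had 2178, 1174 and 1742 in KO and 2580.0, 2489, 1177 and 1517 in WT. MPP2 did not overlap LT-HSC, and WT MPP3 replicate 1 just passed the lowest MPP2 library. The log2 fold changes over LT-HSC were 1.39 for Aurkb (limma adjusted p = 0.0107), 1.15 for Birc5 (0.0099), 1.13 for Cdca8 (0.0258) and 1.05 for Incenp (0.04). Over MPP3 they were 0.74 for Aurkb, 0.79 for Birc5, 0.80 for Cdca8 and 0.82 for Incenp, and 0 of the 4 passed (limma), with 4 of 4 at an unadjusted p under 0.05. The share of all genes at that unadjusted p is not given here.

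Of the spindle and cytokinesis genes, Kif11, Tpx2, Nusap1, Prc1 and Ect2 rose in MPP2 over LT-HSC. Kif11, the kinesin that pushes the spindle poles apart, had 1734, 2024 and 3143 in KO MPP2 and 2435, 2328 and 1755 in WT MPP2. It had 703, 1252 and 997 in KO MPP3 and 1603, 619, 913 and 1992 in WT MPP3. LT-HSC had 1420.2, 357 and 935 in KO and 2226, 1001, 637 and 725 in WT. KO LT-HSC replicate 2 was lowest of all, and WT LT-HSC replicate 1 was within the MPP2 range. Its log2 fold change was 1.30 (limma adjusted p = 0.0321).

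Tpx2, which activates Aurka on the spindle, had 2176, 2634 and 2359 in KO MPP2 and 2892, 2231 and 1904 in WT MPP2. It had 1323, 1193 and 1237 in KO MPP3 and 1826, 530.2, 1062 and 1789 in WT MPP3. The counts were 656, 1129.6 and 779 in KO LT-HSC and 2020.4, 1298, 689 and 895 in WT LT-HSC. MPP2 lay above every MPP3 library and above every LT-HSC library but WT LT-HSC replicate 1. It rose by 1.27 over LT-HSC (limma adjusted p = 0.0109) and 0.96 over MPP3 (limma adjusted p = 0.0452), where the call failed under 17 of 33 alternatives. Nusap1, which bundles microtubules, rose by 1.31 over LT-HSC, and Prc1, which crosslinks the central spindle, by 1.14 (limma adjusted p = 0.0259 for Nusap1 and 0.0374 for Prc1).

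Ect2 departed from the common pattern. It encodes the exchange factor that activates RhoA for the cleavage furrow, and it had 286, 1110.1 and 1162 in KO MPP2 and 1102, 1015 and 1796 in WT MPP2. MPP3 had 969.6, 1103 and 1077 in KO and 1506, 760.1, 497 and 1544 in WT. LT-HSC had 255, 213 and 166 in KO and 790.4, 302, 513 and 246 in WT. Both progenitors were thus high against LT-HSC, except for KO MPP2 replicate 1, which lay among the LT-HSC libraries, and WT MPP3 replicates 2 and 3, which were below WT LT-HSC replicate 1. Ect2 rose by 1.69 in MPP2 (limma adjusted p = 0.0103) and by 1.77 in MPP3 (limma adjusted p = 0.00308), with 2.33 within KO (limma adjusted p = 0.0268) and 1.21 within WT, which did not pass (limma adjusted p = 0.194). MPP2 and MPP3 differed by -0.08 (95% interval -0.84 to 0.68). The windows of Ect2 and Top2a printed above both hold TTTGAA, and any link of these letters to the population patterns was not tested. Kif23, a motor of the central spindle, had its highest mean in MPP3, with 893 ± 301 in MPP2 (SD, n = 6), 1081 ± 249.8 in MPP3 and 697 ± 269 in LT-HSC (n = 7 each). Its MPP3 over LT-HSC difference of 0.75 did not pass (limma adjusted p = 0.109). Anln, Kif20a and Kif2c did not pass against LT-HSC, at 1.46 for Anln, 0.69 for Kif20a and 1.13 for Kif2c, and Anln missed narrowly (limma adjusted p = 0.0503).

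The 3 anaphase genes behaved differently from one another. Ube2c, the ubiquitin-conjugating enzyme of the anaphase-promoting complex, had 3485, 6306 and 1960.0 in KO MPP2 and 2341, 5899 and 3115 in WT MPP2. It had 1053, 1844 and 1627 in KO MPP3 and 3993, 322, 1739 and 2802 in WT MPP3. The stem cells had 1437, 315 and 634 in KO and 2385, 2268, 1102 and 1344 in WT. Libraries of one group differed several-fold, the populations overlapped, and Ube2c rose by 1.73 over LT-HSC (95% interval 0.68 to 2.78, limma adjusted p = 0.0422). Cdc20, the activator of that complex, had 1621, 3699.6 and 2750.0 in KO MPP2 and 2456, 3559 and 1472 in WT MPP2. It had 1251, 1837 and 1473 in KO MPP3 and 2714, 510.1, 2211 and 1912 in WT MPP3. LT-HSC had 1437, 1304 and 754 in KO and 2366, 2073, 1188 and 1239 in WT. The populations overlapped, and the log2 fold change of 0.85 did not pass (limma adjusted p = 0.153).

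Pttg1, securin, the inhibitor of the protease that cuts cohesin, was close to level. It had 597, 889.8 and 993 in KO MPP2 and 511, 902 and 676 in WT MPP2. It had 520.5, 884 and 522 in KO MPP3 and 807, 681, 712 and 583 in WT MPP3. LT-HSC had 745, 747 and 844 in KO and 833, 889.7, 956 and 759 in WT. The groups overlapped throughout, and the library with the low mitosis sum in WT MPP3, replicate 2, was not low in Pttg1. MPP2 minus LT-HSC was -0.14 (95% interval -0.51 to 0.23), MPP3 minus LT-HSC -0.32 (-0.67 to 0.04) and MPP2 minus MPP3 0.18 (-0.19 to 0.54) on the log2 scale. These intervals leave out a difference of 1, which 24 of the 27 risers exceed in MPP2 over LT-HSC. The windows of Mad2l1, Nuf2, Ncaph, Birc5 and Nusap1, which rose in MPP2, hold neither motif. For Mad2l1 the RefSeq start lies 169 bases before the outer start in the annotation. Its window ends before the annotated gene, so the bases around that outer start were not searched. Whether the motifs bear on the level of any of these genes was not tested.

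The KO libraries were next compared with the WT libraries of the same population. Hopx loss came with no called change in any of the 45 genes, in MPP2, MPP3 or LT-HSC, in their mean, or in the difference of the KO effect between populations (limma, 0 of 45 each). The genes at an unadjusted p under 0.05 numbered 1 in MPP2, 0 in MPP3, 2 in LT-HSC, 2 in the mean and 2 for the difference between populations. edgeR and DESeq2 also called 0 in each. At an unadjusted p under 0.05, edgeR had 1 in MPP2, 0 in MPP3, 3 in LT-HSC, 1 in the mean and 1 for the difference, and DESeq2 had 1 in MPP2, 0 in MPP3, 4 in LT-HSC, 5 in the mean and 2 for the difference. The share of all genes at an unadjusted p under 0.05 is not given here, so no result is read from these unadjusted counts. Among all genes, limma called 2 of 17160 genes, 0.0117%, in MPP2, 1 of 17160 genes, 0.00583%, in MPP3, 1 of 17160 genes, 0.00583%, in LT-HSC, 2 of 17160 genes, 0.0117%, in the mean and 0 of 17160 genes, 0.0%, for the difference between populations. The median log2 difference of the 45 genes was -0.14 in MPP2, -0.07 in MPP3, -0.14 in LT-HSC and -0.11 in the mean, beside -0.10 in MPP2, 0.03 in MPP3, -0.03 in LT-HSC and -0.05 in the mean over all genes. In MPP3 it was -0.56 without the libraries with mature neutrophil markers, among them WT MPP3 replicates 2 and 3.

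For the mean of the populations, the 95% interval of 35 of the 45 genes lay within a log2 difference of 1 either way. The half-width of that interval was 0.25 to 0.99. Within single populations the intervals were wider, and 13 genes in MPP2, 17 in MPP3 and 19 in LT-HSC met the same bound.

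Cenpu, a subunit of the inner kinetochore, had the smallest p in LT-HSC, with 1066, 804 and 1027 in KO LT-HSC against 403, 648, 687 and 485 in WT LT-HSC. It was the single gene of the 45 whose KO libraries were all above the WT ones there, against 340 of 17160 genes, 1.98% (log2 difference 0.82, limma adjusted p = 1). In MPP2, Cenpu had 971, 969 and 1106 in KO and 928, 1014 and 992 in WT, which overlap. Foxm1 had the lowest KO minus WT difference in LT-HSC, -1.61 (95% interval -3.25 to 0.02), and the KO and WT LT-HSC counts given above overlap. It was -0.42 without KO LT-HSC replicate 1, the library at 11 reads. Kif23 and Prc1 differed by -0.80 and -0.92 (limma adjusted p = 1 each), and by -0.45 and -0.52 without KO LT-HSC replicate 2. Without WT LT-HSC replicate 1 Prc1 differed by -0.57.

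Set side by side within a run of title numbers, with 1 or 2 libraries a side, KO was above WT in 2 to 18 of the 45 genes, and the median difference over all genes was 0 to 0.05. KO was above WT in 11 of 45 genes in MPP2 numbered 101 to 106 (median log2 difference -0.44) and in 18 of 45 in MPP2 numbered 115 to 120 (-0.07), beside 44.2% and 48.8% of all genes. In MPP3 it was above WT in 14 of 45 genes within 81 to 88 (-0.19) and in 4 of 45 within 115 to 120 (-0.50), beside 54.1% and 50.5% of all genes. In LT-HSC the count was 2 of 45 within 101 to 106 (-0.90), where the WT library is replicate 1, the high one of its group, and 15 of 45 within 115 to 120 (-0.20), beside 48.1% of all genes in each. These 6 settings were not tested, each rests on single libraries, and genes that vary together in a library are not independent. By Xist and Y-linked transcripts, the KO libraries numbered 81 to 88 and 101 to 106 were female and the WT ones male. Those numbered 115 to 120 were all male. Sex and genotype cannot be told apart within 81 to 88 or 101 to 106.

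Cenpk, another inner kinetochore subunit, had the smallest p in MPP2, with 1535, 2042 and 383 in KO MPP2 against 2249, 1905 and 3906 in WT MPP2. The difference of -1.27 (limma adjusted p = 0.5) had KO MPP2 replicate 3 far below and WT MPP2 replicate 3 far above the others, which overlapped between KO and WT. It was -0.53 without KO MPP2 replicate 3. Smc4 and Anln, which encodes the anillin scaffold of the cleavage furrow, had every KO MPP2 library below every WT MPP2 library, at log2 differences of -0.42 for Smc4 and -0.42 for Anln, where 661 of 17160 genes, 3.85%, did so. In Anln the KO libraries had 662, 646 and 692 against 854, 1106 and 753 in WT. In MPP3, Nusap1 had the lowest difference, -0.56, and Smc4 the smallest p, at -0.36 (limma adjusted p = 1). Averaged over the populations, Cenpu at 0.30 and Nusap1 at -0.59 had unadjusted p of 0.0295 and 0.0454 (limma adjusted p = 0.857 for each).

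**Figure D5:**
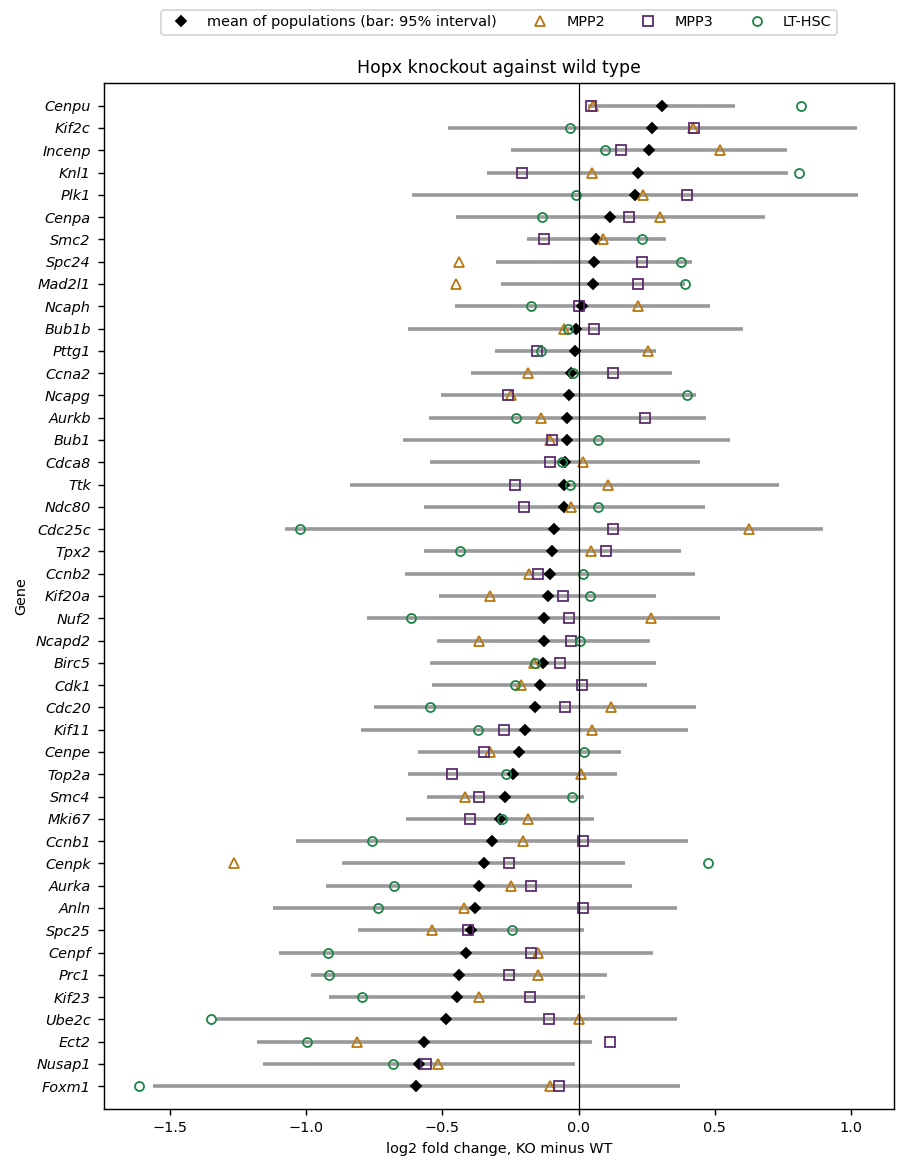
KO minus WT log2 differences of the 45 genes in MPP2 (triangles), MPP3 (squares) and LT-HSC (circles), with the mean of the populations as a diamond and its 95% interval as a bar. The diamonds run from -0.60 for Foxm1 to 0.30 for Cenpu, 0 of the 45 passed the limma threshold, and the LT-HSC circles spread farthest.

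The other genes of the machinery were taken from lists of 130 genes in 8 groups, none of them among the 45. In MPP2 over LT-HSC, 44 of the 130, or 33.8%, rose and 1 fell (limma), beside 2.24% and 5.08% of all genes, with a median log2 difference of 0.56. In MPP2 over MPP3, 20, or 15.4%, rose and 1 fell, beside 2.24% and 4.64% of all genes. In MPP3 over LT-HSC, 5, or 3.85%, rose and 1 fell, near the 3.22% of all genes that rose there, where 4.18% fell. KO minus WT called 0 of 130 in the mean of the populations (limma), and 0 in each of the lists. Of 29 further centromere and kinetochore genes, 16 rose in MPP2 over LT-HSC, among them Mis18a, which primes centromeres for new Cenpa, at 0.74, Cenpw at 0.89 and Cenpi at 1.18 (limma adjusted p from 0.00518 to 0.00923). The exception was Cenpt, a DNA-contacting subunit of the inner kinetochore, which fell in both progenitors, with log2 differences from LT-HSC of -0.96 in MPP2 and -1.47 in MPP3 (limma adjusted p = 0.0157 in MPP2 and 0.000218 in MPP3). Cenpt was 384 ± 115 in MPP2, 268 ± 76 in MPP3 and 738 ± 171 in LT-HSC, with LT-HSC highest (SD, n = 6, 7 and 7).

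Among 34 further spindle and cytokinesis genes, 14 rose in MPP2 over LT-HSC, led by the kinesin Kif18a at 1.43, the tubulin Tuba1b at 0.77 and the kinesin Kif20b at 0.95. Of 16 kinases, phosphatases and Cdk partners, 4 rose, and Cks1b, the small subunit that binds Cdk1, had the smallest p at 1.05 (limma adjusted p = 0.000531). Nek6, a mitotic NIMA-family kinase, rose in MPP3 over LT-HSC by 2.72 and fell in MPP2 against MPP3, with a log2 difference of -3.15 (limma adjusted p = 0.029 in MPP3 over LT-HSC and 0.0191 in MPP2 against MPP3). Of 18 genes of the anaphase-promoting complex and its regulators, 1 was called. That gene was Fbxo5, the inhibitor Emi1, which rose by 1.21 in MPP2 over LT-HSC. Of 12 cohesin genes, 2 rose, Cdca5 (sororin) at 1.13 and the acetyltransferase Esco2 at 1.18. Condensin II gave 1 of 3, Ncapg2 at 1.26, and the further checkpoint genes 3 of 6, Sgo1, Bub3 and Sgo2a. Of 12 DREAM and MuvB genes, whose complexes bind the CHR letters, 3 rose, Lin54 at 0.92, Rbl1 at 0.44 and Rbbp4 at 0.47.

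For context, 8 of 22 DNA replication genes rose in MPP2 over LT-HSC, among them Dut at 0.77 and Pcna at 0.61, and their median of 0.56 was below the 1.13 of the 45 mitosis genes. The difference of these medians was not tested. Of 5 tested CDK inhibitors, Cdkn1c (p57) fell in both progenitors, with log2 differences from LT-HSC of -2.71 in MPP2 and -3.39 in MPP3 (limma adjusted p = 0.00265 in MPP2 and 9.35e-05 in MPP3). Cdkn1a (p21) rose in MPP3 over LT-HSC by 1.76 (limma adjusted p = 0.0136).

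Levels of different genes can be compared per length only. Divided by the exonic length in kilobases, the mean normalized count in MPP2 was highest for Ccnb2, at 2760.0, followed by Smc4 at 1679 and Ube2c at 1481. In LT-HSC the same scale gave 1473 for Ccnb2, 943 for Smc4 and 521 for Ube2c. Anln was lowest in MPP2, at 86.6, and Foxm1 in LT-HSC, at 31.5. The ratio of mean counts, MPP2 over LT-HSC, ran from 0.92 in Pttg1 to 3.28 in Knl1. Within groups, the 45 genes had a median SD of 0.586 on the log2 scale, beside 0.400 for the 7751 tested genes with mean levels in the same range and 0.673 for all genes tested. Some counts are uncertain, since the sources used here do not state whether reads were counted by strand and some exons overlap those of another gene. The overlapping share of exonic bases was 29.3% for Kif20a with Cdc23, 26.7% for Cenpu with Primpol, 22.8% for Ube2c with Tnnc2, 13.4% for Ncapg with Lcorl, 12.7% for Cdc25c with Gm3550, 12.5% for Ccna2 with Exosc9 and 11.1% for Prc1 with Rccd1.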

How the data were processed

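RNA was sequenced from 20 sorted bone-marrow libraries. Per the submitters' processing notes, the build was GRCm38 and the tools were TopHat2 2.1.1, an aligner, HTSeq 0.11.2, a read counter, and DESeq, which normalizes counts. The deposited values (signal) are the authors' counts divided by 1 size factor per library, as the values themselves show, and are called normalized counts here. Whole reads, recovered within 1e-06, numbered 11163345 to 15189909 in genes per library. Reads in genes made up 18.5% to 21.4% of all counted entries and alignments at several places 52.6% to 57.8%, so near-identical copies (Ccnb1-ps, Ccnb2-ps) make Ccnb1 and Ccnb2 uncertain. The annotation release is absent from those notes.

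The 5 summary entries were left out. Genes kept by edgeR's filterByExpr on the reads (17160) were fitted with limma 3.58.1 (trend and robust) on log2(value + 1) as 6 group means in R 4.3.3, and called at a Benjamini-Hochberg adjusted p under 0.05 over all 17160. Mean differences weight both genotypes, or the 3 populations, equally. A log2 fold change on this scale understates the change of low genes. The members, the other lists and the tests were chosen with earlier results of these data known. The members called, up to 12 of smallest p, or the 4 of smallest p where fewer than 4 were called, were named in each comparison, with 14 genes given in every library by name and others, such as Smc2, Ect2, Pttg1, Ube2c and Cenpu, added after their values were seen. Alternatives were pseudocounts of 16 and 0.5, no filter, TMM, voom, edgeR 4.0.16, DESeq2 1.42.0, the runs of title numbers or sex as a covariate, without the libraries numbered 52 to 54, the compared groups alone, and each library left out. Replicate numbers follow accession order and pair nothing. Each of 24 tested replicate pairs differed beyond sampling noise. The limma step was tested on simulated data. RefSeq promoter windows are of GRCm38.p6.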

Additional observations from a re-analysis of the deposited data

Results flagged for a closer look

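In groups of 4 libraries, 1 library lay far from the other 3 by Dixon's test in 9 of 90 tests. The test was run on the log2(normalized count + 1) scale, whereas the values below are normalized counts. A single test flags about 1 in 20 by chance. Genes that vary together in a library are not independent, so the 9 cannot be set against that rate. WT MPP3 replicate 2 was the low library in 8 of them. It had 18.8 normalized counts of Cdc25c against 349.9 to 501 in the other 3 WT MPP3 libraries. It had 467 of Aurka against 1611 to 1939, 3399.9 of Top2a against 6508 to 6661 and 275 of Bub1b against 1498 to 1917. It had 978 of Spc24 against 1789 to 1911, 1419.8 of Spc25 against 1895 to 1996, 776 of Cdca8 against 2604 to 2715, and 1228 of Nusap1 against 2441 to 2755. WT LT-HSC replicate 1 was the high library in the remaining test, with 2362 of Mad2l1 against 1233 to 1351. By Xist and Y-linked transcripts, the female WT libraries were those numbered 52 to 54. Sex and number run therefore cannot be told apart within WT. WT MPP3 replicate 2, the only female of its group, was 1 of these 3 and also 1 of the 5 libraries with mature neutrophil markers. It had the fewest reads in genes of the 20 libraries, 11163345, and the most genes with a read, 20831. Its 6 neutrophil precursor markers summed to 18154 normalized counts, against 23398 to 134183 in the other 3, its 5 early lymphoid markers to 31275, against 13911 to 16065, and its 10 stem cell markers to 17932, against 8531 to 10003. The part of any of these in its low values was not tested.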

How the results depend on the processing

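The number of mitosis genes higher in MPP2 than LT-HSC was 16 to 35 with single libraries left out and 17 without the libraries with mature neutrophil markers, against 27. For MPP3 over LT-HSC it was 1 to 5 with single libraries left out, 2 with the number runs as a covariate, 4 without the libraries numbered 52 to 54, 2 with only the compared groups, 3 without the neutrophil-marked libraries and 5 without WT MPP2 replicate 3 and WT MPP3 replicate 2, against 1. For MPP2 over MPP3 it was 3 to 11 with single libraries left out, 14 with DESeq2, 13 with the number runs, 13 with sex and 0 without the neutrophil-marked libraries, against 8. Leaving out the neutrophil-marked libraries, and WT MPP2 replicate 3 with WT MPP3 replicate 2, were added after seeing the data.

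Within WT, the count for MPP2 over LT-HSC was 4 and went to 0 to 11 with single libraries left out, 9 with a pseudocount of 16, 1 with edgeR, 16 with DESeq2, 17 with the number runs, 13 with sex, 2 without the libraries numbered 52 to 54, 0 with only the compared groups, 0 without the neutrophil-marked libraries and 12 without WT MPP2 replicate 3 and WT MPP3 replicate 2. For MPP3 over LT-HSC it was 0 and went to 0 to 2 with single libraries left out, 1 with DESeq2, 1 without the libraries numbered 52 to 54 and 2 without that pair. For MPP2 over MPP3 it was 0 and went to 0 to 1 with single libraries left out and 1 each with DESeq2, the number runs, sex and without the libraries numbered 52 to 54.

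Within KO, the count for MPP2 over LT-HSC was 2 and went to 0 to 8 with single libraries left out, 0 with edgeR, 14 with DESeq2, 11 with the number runs, 7 with sex, 15 without the libraries numbered 52 to 54, 0 with only the compared groups, 1 without the neutrophil-marked libraries and 10 without that pair. For MPP3 over LT-HSC it was 1 and went to 0 to 1 with single libraries left out and 0 with voom, the number runs or without the neutrophil-marked libraries. For MPP2 over MPP3 it was 1 and went to 0 to 2 with single libraries left out, 3 with DESeq2, 2 with the number runs, 2 with sex, 3 without the libraries numbered 52 to 54 and 2 without that pair. The cause of these moves was not tested. For the alternatives the share of all genes called is not given here. A moved count therefore cannot be told apart from a move in calls over all genes. KO against WT gave 0 of the 45 genes under every alternative run.

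No paired analysis was possible because the labels do not say which libraries share an animal or day; the runs of title numbers entered as a covariate. Smc2, Top2a, Mki67, Ccna2, Knl1, Smc4, Cdk1, Cenpe, Birc5, Ect2, Aurkb and Tpx2 in MPP2 over LT-HSC, and Ect2 in MPP3, passed under all 33 alternatives, and 0 named values changed sign. Top2a and Tpx2 in MPP2 over MPP3 failed under 16 and 17 of 33. With 3 or 4 libraries a group and no labelled animals, the single-population intervals of most of the 45 genes do not exclude a KO effect of 1 on the log2 scale.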
